A study of Mus musculus with 9 samples.

Results

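Cell cycle and DNA replication genes were followed in mouse liver after spaceflight. The list held 38 genes, chosen by symbol for what each gene does in replication or division, with earlier results of these data known. All 38 were found among the 34866 genes of the table. Of these, 26 had at least 10 counts in 3 or more of the 9 libraries, and the same 26 were among the 13193 genes tested. The other 12 were too low to test and are given by their counts.

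The study compared livers of wild-type (WT) male C57BL/6J mice in 3 groups of 3 mice. GC mice were kept on the ground, A1G mice spent 30 days in orbit in a centrifuge at 1 g, and MG mice spent 30 days in orbit in microgravity. Poly(A) RNA of a liver homogenate gave 1 library per mouse, so fewer cells of a type and less RNA per cell cannot be told apart. The ground experiment was run at another site and months after the flight, the flown mice were dissected on Earth after landing, and these differences cannot be told apart from flight in any comparison with GC.

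The library totals ran from 13189515 to 23738049 estimated counts, with the lowest 2 in MG mice. Levels are given as CPM, counts scaled to library size after TMM normalization, with mean ± SD over 3 mice. Changes are log2 fold changes ± SE from edgeR's quasi-likelihood model, and adjusted p is Benjamini-Hochberg over all genes tested. A gene is said to have risen or fallen only when its adjusted p was under 0.05.

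Before a cell divides it copies its DNA once. In G1 the origin recognition complex, CDC6 and CDT1 load the ring of MCM2 to MCM7 onto DNA. Cyclin-dependent kinases, released from their inhibitors, start synthesis and free the E2F programme of S phase genes from the RB proteins. Mitotic genes follow in G2, driven by FOXM1, MYBL2 and the NF-Y factor. Most hepatocytes of an adult liver rest outside the cycle and enter it after injury or loss of tissue, while blood cells, endothelium and bile duct cells in the organ can also divide.

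The promoters of several members are shown because they carry, in different mixtures, the sequence elements by which S phase and mitotic genes are usually recognised. Sequences are from RefSeq (build GRCm38.p6), cover 250 bases before to 50 bases after the gene start, and were available for 31 of the 38 genes. *Rrm2* is shown as the member that passed the test, *Mcm6* and *Mcm7* as the replication genes and *Top2a* and *Mki67* as the mitotic genes with the most matches. Capitals mark matches on either strand. The cell cycle homology region was searched as TTTGAA and in its variant form as TTCGAA. E2F sites were searched in 3 forms, which are TTCCCGC as the first of them, then also TTGGCGC, and as the last form TTCGCGC. The NF-Y box was searched under the letters CCAAT. Matches of different motifs may overlap and were counted separately.
Rrm2 promoter (chr12:24708004-24708303, plus strand): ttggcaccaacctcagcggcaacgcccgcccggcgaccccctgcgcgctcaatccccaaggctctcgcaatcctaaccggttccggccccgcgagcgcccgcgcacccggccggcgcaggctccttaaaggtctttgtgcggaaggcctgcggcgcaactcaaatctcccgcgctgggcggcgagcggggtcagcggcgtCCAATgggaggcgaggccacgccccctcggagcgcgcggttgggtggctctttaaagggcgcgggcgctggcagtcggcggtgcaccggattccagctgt
Mcm6 promoter (chr1:128359656-128359955, minus strand): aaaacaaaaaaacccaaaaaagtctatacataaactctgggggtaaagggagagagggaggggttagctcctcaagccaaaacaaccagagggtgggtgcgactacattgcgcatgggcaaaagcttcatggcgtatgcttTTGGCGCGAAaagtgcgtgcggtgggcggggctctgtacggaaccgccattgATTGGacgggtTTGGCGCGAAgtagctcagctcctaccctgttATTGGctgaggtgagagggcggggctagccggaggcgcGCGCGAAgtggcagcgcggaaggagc
Mcm7 promoter (chr5:138171834-138172133, minus strand): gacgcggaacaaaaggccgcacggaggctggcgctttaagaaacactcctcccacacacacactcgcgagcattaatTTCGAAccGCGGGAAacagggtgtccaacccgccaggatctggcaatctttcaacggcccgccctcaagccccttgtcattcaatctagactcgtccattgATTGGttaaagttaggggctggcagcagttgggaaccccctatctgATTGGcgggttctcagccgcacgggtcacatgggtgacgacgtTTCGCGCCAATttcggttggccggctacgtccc
Top2a promoter (chr11:99024140-99024439, minus strand): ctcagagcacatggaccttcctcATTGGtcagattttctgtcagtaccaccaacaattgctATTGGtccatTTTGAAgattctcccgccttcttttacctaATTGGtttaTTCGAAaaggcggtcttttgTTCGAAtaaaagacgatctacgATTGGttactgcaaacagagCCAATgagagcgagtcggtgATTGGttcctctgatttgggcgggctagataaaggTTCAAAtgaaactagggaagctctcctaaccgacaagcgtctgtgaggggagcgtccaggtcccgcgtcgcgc
Mki67 promoter (chr7:135716330-135716629, minus strand): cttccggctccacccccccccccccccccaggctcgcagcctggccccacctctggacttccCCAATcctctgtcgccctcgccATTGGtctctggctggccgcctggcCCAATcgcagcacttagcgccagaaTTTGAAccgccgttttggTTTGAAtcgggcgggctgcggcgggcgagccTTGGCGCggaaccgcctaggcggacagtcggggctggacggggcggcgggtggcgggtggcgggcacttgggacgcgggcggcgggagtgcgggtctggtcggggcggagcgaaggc

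The *Rrm2* promoter held 1 NF-Y box and no match to the other motifs. The *Mcm6* promoter held 5 E2F matches and 2 NF-Y boxes, and that of *Top2a* held 4 cell cycle homology matches and 6 NF-Y boxes. Among the members with a promoter, 38.7% held a cell cycle homology match, against 19.4% of 27025 genes in the table. For E2F sites the shares were 41.9% and 8.21%, and for the NF-Y box 74.2% and 37.9%. By role, E2F matches were in 6 of 7 licensing genes and 1 of 10 mitotic genes, and cell cycle homology matches in 2 of 7 and 8 of 10. A match is a stretch of letters and not a measured binding site.

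In MG vs. GC, *Rrm2* was the member that fell, to less than its level in any GC mouse. Most of the other members had lower estimates in MG mice without passing the test. Of the 26 tested, 1 was called lower and 0 higher, against 2.15% and 1.17% of all genes. At an unadjusted p under 0.05, 14 members were lower and 0 higher, where 10.2% of all genes were lower and 8.23% higher. For 12 members every MG mouse was below every GC mouse, which held for 12.0% of all genes. The reverse held for no member and for 10.7% of all genes. Estimates were below 0 for 21 members and for 49.4% of all genes, with medians of -0.76 and 0.00. Leaving out MG replicate 3 raised the members called lower to 3 (*Mcm2*, *Mki67* and *Rrm2*) and leaving out A1G replicate 1 to 2 (*Rrm2* and *Tk1*). DESeq2, which called 805 of all genes here where edgeR called 439, called 3 lower (*Mcm2*, *Rrm2* and *Tk1*).

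These counts describe the members that reached the filter and carry no test of the list. For 8 members fewer than 9 libraries reached 10 counts, and some of these, such as *Uhrf1* and *Ccne1*, passed the filter through GC and A1G mice alone. The direction also depends in part on scaling. With total library size the median over all genes moved to 0.14 and that of the members to -0.62, with 19 of 26 below 0. In log2(TPM + 1), which covers the 18 members with at least 1 TPM in 3 libraries and understates changes of low genes, the medians were 0.24 and -0.08, with 10 of 18 below 0. The number without overlap was 12 with library size and 8 in TPM, where 6.88% and 3.96% of all genes were lower. In TPM the MG and GC mice overlapped for *Mcm2*, *Mcm5*, *Cdt1*, *Ccne1* and *Top2a*, which did not overlap in CPM.

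In A1G vs. GC, no member passed. edgeR called 0 higher and 0 lower, where 0.174% and 0.470% of all genes were called. At an unadjusted p under 0.05, 5 members were lower and 0 higher, against 7.61% and 6.61% of all genes. DESeq2, which called 329 of all genes here where edgeR called 85, called 1 lower (*Mki67*). limma on log2(TPM + 1) called 0 of the 18 members it covers, which do not include *Mki67*. Every A1G mouse was below every GC mouse for 5 members, with 9.97% of all genes as background, and above it for 0, with 9.45%. Estimates were below 0 for 18 members and 49.5% of all genes. The median estimate was -0.25, against 0.00 for all genes, and with library size -0.08 against 0.18, with 15 of 26 members below 0. In log2(TPM + 1) the members' median turned positive, at 0.049 against 0.24, with 9 of 18 below 0.

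In MG vs. A1G, 2 groups that flew together, edgeR again called 0 members higher and 0 lower, where 0.0531% and 0.0227% of all genes were called. At an unadjusted p under 0.05, 5 members were lower and 0 higher, against 4.61% and 4.37% of all genes. Estimates were below 0 for 19 members and 51.0% of all genes. DESeq2, which called 173 of all genes here where edgeR called 10, called 1 lower (*Mcm2*). The fit of limma on log2(TPM + 1) called 0 of the 18 members it covers. Groups did not overlap for 5 members lower and 1 higher in MG mice, with 7.80% and 7.62% as background, and the median was -0.28 against -0.01. The comparisons share groups, so they are not independent of each other. Relative to the GC mean, the mean log2 CPM over the 26 genes was 0.11, -0.01 and -0.09 in GC mice, -0.31, -0.25 and -0.23 in A1G mice and -0.82, -0.79 and -0.65 in MG mice. These means were taken with TMM only, and the medians above moved with scaling. They include members such as *Uhrf1* and *Ccne1*, which passed the filter through GC and A1G mice alone, so they describe the members and carry no test.

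**Figure D1:**
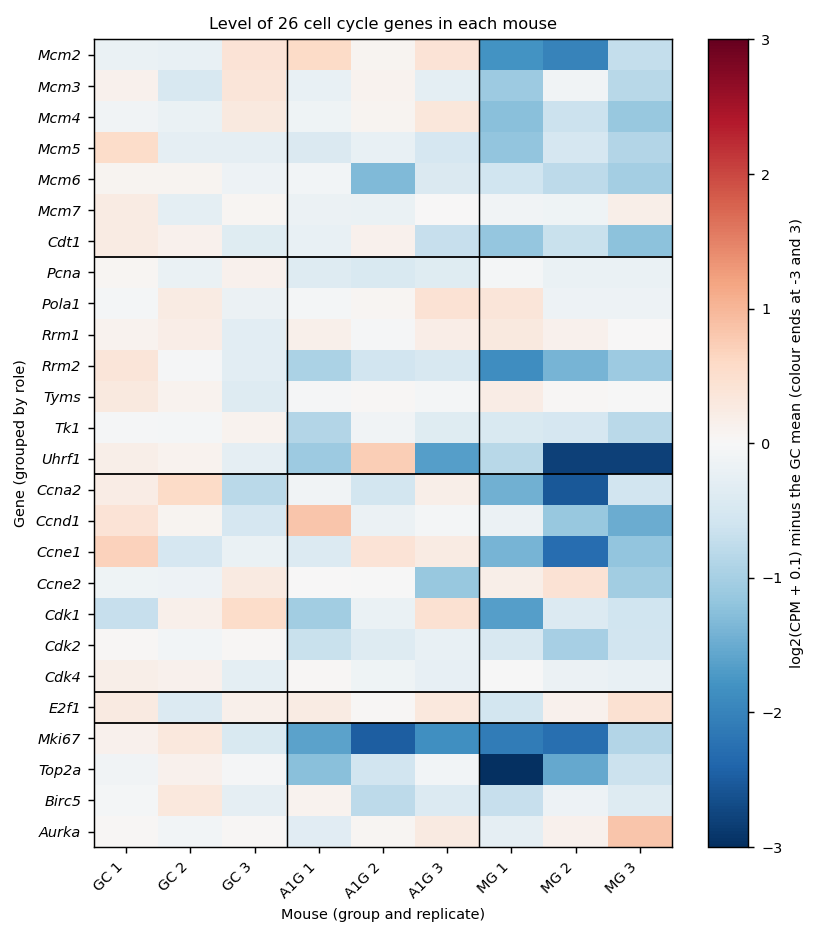
Heat map of 26 tested genes (rows, grouped by role) in 9 mice (columns), coloured by log2(CPM + 0.1) minus the mean of the 3 GC mice. The MG columns are mostly blue in the *Mcm* rows other than *Mcm7*, in *Rrm2* and in the rows of *Ccna2* and *Ccne1*, while *Rrm1*, *Tyms*, *Cdk4* and *E2f1* are near white throughout.

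The genes of origin licensing were low, with the ring subunits other than *Mcm7* at a mean of 0.485 to 1.36 TPM. *Mcm2* (chr6:88883474-88898780, minus strand) encodes a subunit of the MCM ring, the helicase that unwinds DNA at the fork. It stood at 2.15, 2.11 and 3.29 CPM in GC mice, 3.72, 2.61 and 3.32 in A1G mice and 0.635, 0.539 and 1.47 in MG mice. In CPM all 3 MG mice lay below all 6 others. In TPM MG replicate 2 (1.46) lay above every GC mouse (0.628 to 1.27). The log2 fold change was -1.56 ± 0.40 (adjusted p = 0.0578) in MG vs. GC, 0.36 ± 0.35 (0.679) for A1G over GC and -1.92 ± 0.39 (0.0887) for MG over A1G. Its call turned on the settings. It passed in MG vs. GC when genes of low counts were kept (adjusted p = 0.0153), with DESeq2 (0.0446) and without MG replicate 3 (0.0198), and in log2(TPM + 1) its estimate was -0.12.

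*Mcm4* (chr16:15623897-15637400, minus strand), another subunit of the ring, stood at 4.01, 3.72 and 5.28 CPM in GC, 3.90, 4.57 and 5.44 in A1G and 1.73, 2.69 and 1.91 in MG mice. GC and A1G mice overlapped, and MG mice lay below both. Its log2 fold change was -1.02 ± 0.26 (adjusted p = 0.0584) in MG vs. GC and -1.13 ± 0.26 (0.150) for MG over A1G. *Mcm7* (chr5:138164583-138172422, minus strand) had the highest level of the licensing genes, at a mean of 7.62 TPM. It stood at 14.9, 10.3 and 13.1 CPM in GC, 11.2, 11.1 and 12.7 in A1G and 11.7, 11.5 and 14.2 in MG mice, and all groups overlapped. Its estimate was -0.04 ± 0.16 in MG vs. GC with TMM and 0.11 with library size. *Mcm7* overlaps *Cops6* and *Ap4m1* on the other strand, and whether the quantification used strand is not given in the sources used here.

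The other licensing genes had estimates below 0 in MG vs. GC. They were -0.66 ± 0.34 for *Mcm3*, -0.97 ± 0.42 for *Mcm5*, -0.83 ± 0.34 for *Mcm6* and -1.10 ± 0.39 for *Cdt1*, which loads the ring at origins (adjusted p from 0.158 to 0.324). In CPM the MG and GC mice did not overlap in *Mcm5*, *Mcm6* and *Cdt1*. In TPM *Mcm6* did not overlap either, while *Mcm5* and *Cdt1* did. The mean TPM of *Cdt1* was 1.12 in GC and 1.14 in MG mice. *Cdt1* also overlaps the gene *Gm20388* on the same strand. In *Cdt1* the CPM were 2.00, 1.84 and 1.29 in GC, 1.43, 1.86 and 1.00 in A1G and 0.693, 1.03 and 0.660 in MG mice. A single A1G mouse thus stood below the highest MG mouse. *Cdc6*, which loads the ring together with CDT1, had 8, 3 and 8 counts in GC, 2, 4 and 0 in A1G and 2, 0 and 0 in MG mice.

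**Figure D2:**
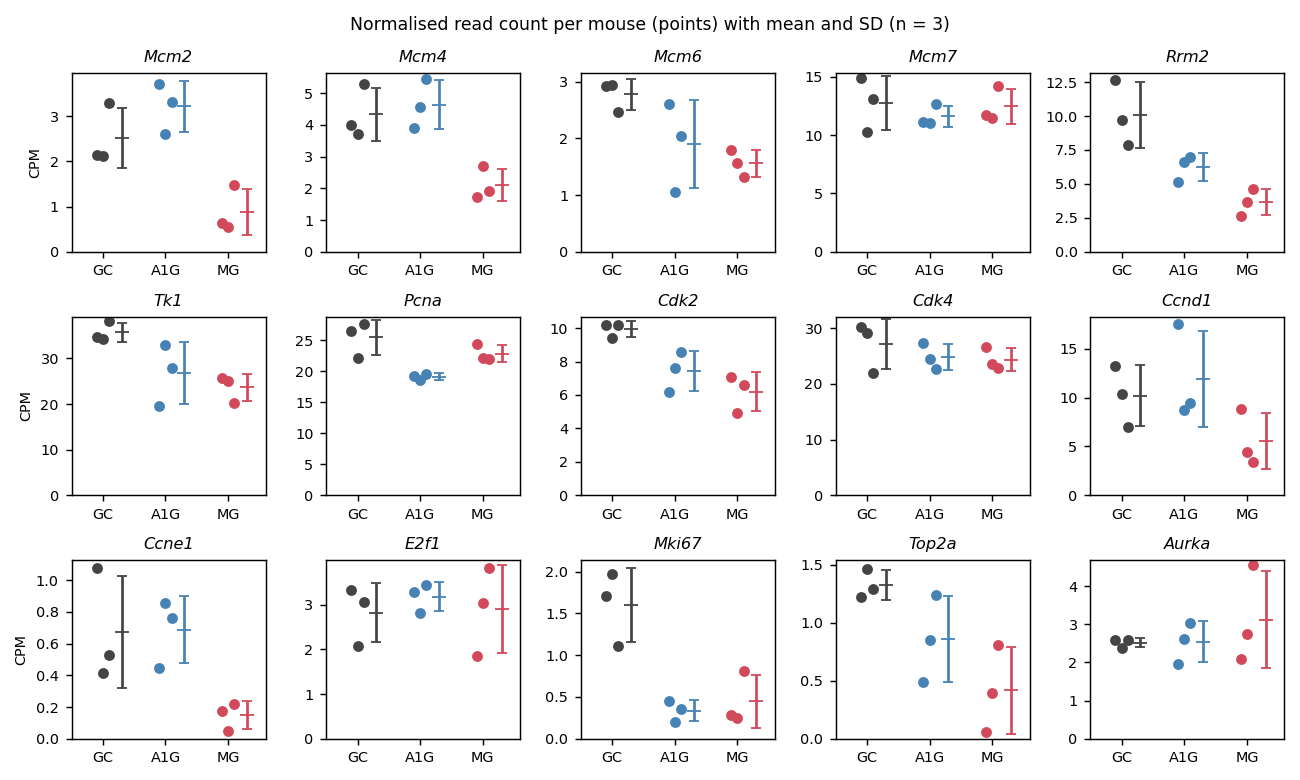
CPM of 15 genes in each mouse (points), with the mean and SD of 3 mice beside them, on axes that start at 0 (GC black, A1G blue, MG red). In *Rrm2* the groups are stepped, with MG mice at 2.66 to 4.62 CPM and GC mice at 7.87 to 12.7 CPM; *Mcm2* and *Mcm4* are low in MG mice only, and *Mki67* is low in both flown groups.

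Among genes of DNA synthesis, *Rrm2* fell and *Rrm1* did not pass; the difference between them was not tested. Both encode subunits of ribonucleotide reductase. The enzyme makes deoxyribonucleotides, and its small subunit RRM2 is the one whose level follows S phase. *Rrm2* (chr12:24708241-24714146, plus strand) stood at 12.7, 9.69 and 7.87 CPM in GC, 5.11, 6.63 and 7.0 in A1G and 2.66, 3.67 and 4.62 in MG mice. The 3 groups did not overlap in any pair. It fell from 10.1 ± 2.42 CPM in GC mice to 3.65 ± 0.981 in MG mice (n = 3), which is 2.78-fold (log2 fold change -1.47 ± 0.25, adjusted p = 0.00873). The call held in all 9 fits that left out a library, with adjusted p up to 0.0441. Among 12 other settings it was lost in limma on log2(TPM + 1) without a filter (adjusted p = 0.0621). In A1G vs. GC the estimate was -0.69 ± 0.24 (0.225) and in MG vs. A1G -0.78 ± 0.25 (0.307).

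*Rrm1*, the large subunit, stood at 10.5, 11.2 and 7.81 CPM in GC, 10.7, 9.45 and 11.1 in A1G and 11.8, 10.5 and 9.82 in MG mice, and the groups overlapped (0.13 ± 0.17 in MG vs. GC). *Rrm2b*, the small subunit known from the p53 response and outside the list, was looked up after these values were seen. Its estimate in MG vs. GC was 0.17 ± 0.24 (adjusted p = 0.775), with 2.54 to 3.17 CPM in GC and 2.84 to 3.70 in MG mice.

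*Tk1* (chr11:117815526-117826092, minus strand), the thymidine kinase of dividing cells, had the highest mean level of the 38 genes at 33.8 TPM. It stood at 34.7, 34.2 and 38.2 CPM in GC, 19.5, 33.0 and 27.8 in A1G and 25.8, 25.0 and 20.3 in MG mice. In CPM both flown groups lay below GC and overlapped each other. In TPM A1G replicate 2 (38.2) lay above GC replicates 1 and 2 (34.1 and 35.9). With library size A1G and GC mice also overlapped. The log2 fold change was -0.59 ± 0.17 (adjusted p = 0.0957) in MG vs. GC and -0.42 ± 0.17 (0.305) for A1G over GC. It passed in MG vs. GC without A1G replicate 1 (0.0249) and with DESeq2 (0.00762). *Tk1* overlaps *Afmid* on the other strand, and its estimated counts were whole in none of the 9 libraries.

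*Pcna* (chr2:132249162-132253314, minus strand), the clamp that holds polymerases on DNA, was lowest in A1G mice. It stood at 26.6, 22.2 and 27.6 CPM in GC, 19.3, 18.5 and 19.6 in A1G and 24.4, 22.1 and 22.0 in MG mice. In CPM A1G mice lay below both other groups, and *Pcna* was the member without overlap that was higher in MG than in A1G mice. In TPM A1G mice (20.0, 17.7 and 20.6) overlapped with GC mice (19.4, 18.6 and 25.3). With library size A1G and GC mice also overlapped. Its estimate was -0.41 ± 0.12 (adjusted p = 0.153) in A1G vs. GC and 0.25 ± 0.12 (0.567) for MG over A1G. In MG vs. GC it was -0.16 ± 0.12 with TMM and 0.13 in log2(TPM + 1).

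*Tyms*, thymidylate synthase, and *Pola1*, the catalytic subunit of polymerase alpha, had estimates of 0.05 ± 0.20 and 0.02 ± 0.27 in MG vs. GC, and their groups overlapped. *Uhrf1*, which guides the methyltransferase DNMT1 to newly copied DNA, stood at 0.684, 0.643 and 0.470 CPM in GC, 0.224, 1.06 and 0.120 in A1G and 0.289, 0 and 0 CPM in MG mice. The counts in MG mice were 5, 0 and 0, and a count of 0 allows up to 3 counts, or 0.147 and 0.220 CPM in these libraries, for counting error only. MG mice were below GC mice, with an adjusted p of 0.241 on few counts.

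Among cyclins and their kinases, estimates in MG vs. GC ran from -2.27 to -0.01, and none of the 7 tested passed. *Cdk2* (chr10:128697939-128705031, minus strand), which drives the entry into S phase, stood at 10.2, 9.41 and 10.2 CPM in GC, 6.19, 7.64 and 8.56 in A1G and 7.10, 4.90 and 6.60 in MG mice. In CPM both flown groups lay below GC and overlapped each other. In TPM the A1G mice (4.68, 4.73 and 4.84) lay above GC replicates 1 and 2 (4.32 and 4.54). With library size A1G and GC mice also overlapped. The log2 fold change was -0.69 ± 0.19 (adjusted p = 0.0785) in MG vs. GC and -0.41 ± 0.19 (0.348) for A1G over GC. *Ccne1* (chr7:38097984-38107534, minus strand), cyclin E1, the partner of CDK2, had few counts. It stood at 1.07, 0.413 and 0.528 CPM in GC, 0.448, 0.854 and 0.760 in A1G and 0.173, 0.0490 and 0.220 in MG mice, with 7 counts in all in MG. MG mice lay below all others (-2.27 ± 0.70, adjusted p = 0.107 in MG vs. GC and -2.30 ± 0.70, 0.292 for MG over A1G). *Ccne2*, the paralog with the same partner, had 2.05, 2.02 and 2.70 CPM in GC, 2.24, 2.21 and 0.960 in A1G and 2.54, 3.04 and 1.03 in MG mice, and its groups overlapped (-0.01 ± 0.42).

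*Ccnd1*, cyclin D1, which carries growth signals into G1, stood at 13.2, 10.4 and 6.99 CPM in GC, 17.5, 8.74 and 9.40 in A1G and 8.78, 4.41 and 3.44 in MG mice. The highest MG mouse overlapped with GC and A1G mice (-0.88 ± 0.37, adjusted p = 0.234 in MG vs. GC and -1.09 ± 0.37, 0.339 for MG over A1G). *Cdk4* (chr10:127063534-127067920, plus strand), the kinase that cyclin D1 activates, was the second of the members by level, at a mean of 30.9 TPM. It stood at 30.2, 29.1 and 22.0 CPM in GC, 27.4, 24.4 and 22.7 in A1G and 26.7, 23.6 and 22.8 in MG mice. All groups overlapped, with -0.15 ± 0.14 in MG vs. GC. *Ccna2*, cyclin A2 of S and G2 phase, and *Cdk1*, the kinase of mitotic entry, had estimates of -2.16 ± 0.88 and -0.98 ± 0.60 in MG vs. GC on 6 and 26 counts in all in MG mice, and both overlapped with GC.

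Of the transcription factors, *E2f1* (chr2:154559407-154569892, minus strand), an activator of S phase genes, stood at 3.32, 2.07 and 3.05 CPM in GC, 3.27, 2.81 and 3.44 in A1G and 1.85, 3.04 and 3.81 in MG mice. The groups overlapped, with estimates of 0.04 ± 0.30 for MG over GC, 0.18 ± 0.30 for A1G over GC and -0.14 ± 0.30 for MG over A1G. *Foxm1*, the activator of mitotic genes, was too low to test, with 24 counts over the 3 GC mice, 11 over the A1G mice and 4 over the MG mice.

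**Figure D3:**
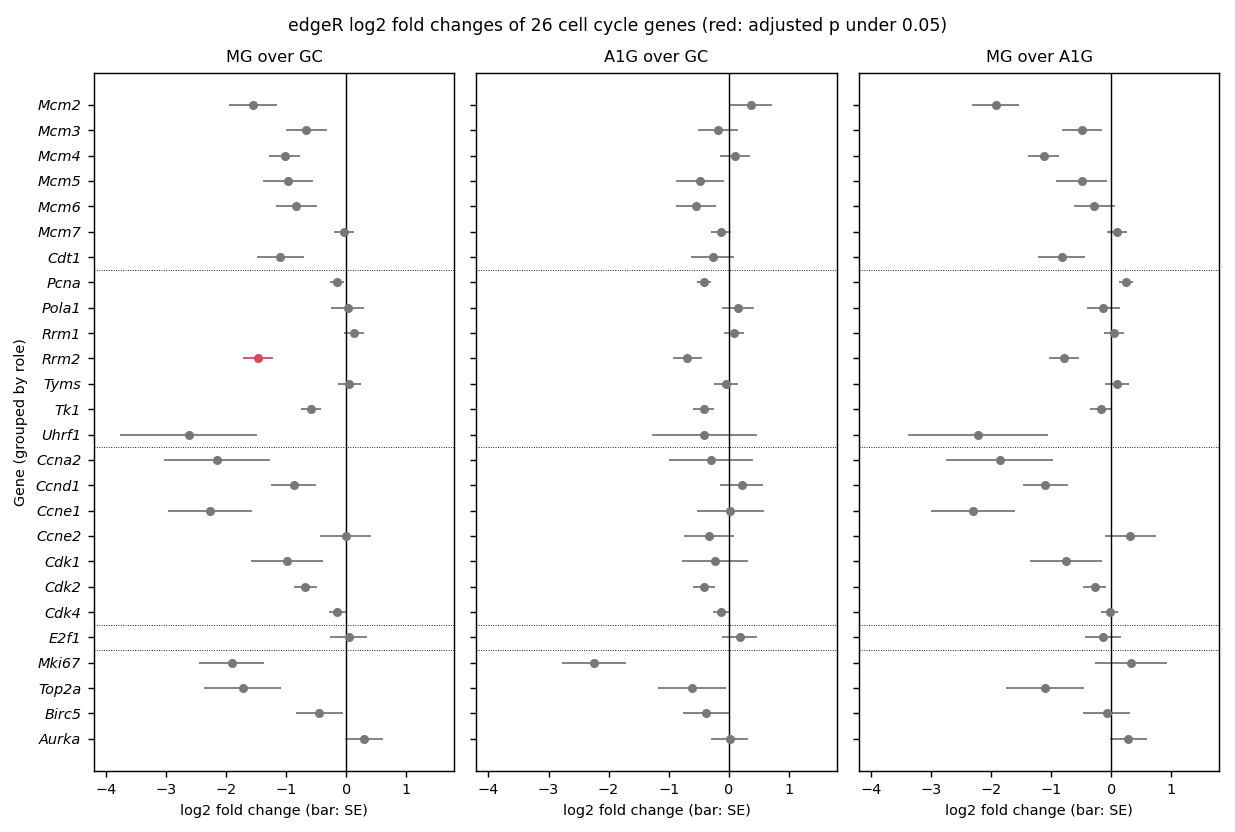
Log2 fold change (point) and SE (bar) of 26 genes in the 3 comparisons, ordered by role, with red for an adjusted p under 0.05. The single red point is *Rrm2* in MG over GC at -1.47; *Mki67* lies at -1.91 and -2.24 in MG and A1G over GC and at 0.33 in MG over A1G.

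Most mitotic genes had few counts. Of 11 members 4 were tested and none passed. *Mki67* (chr7:135689784-135716361, minus strand) encodes Ki-67, the protein that marks cells in cycle. It stood at 1.71, 1.97 and 1.12 CPM in GC, 0.448, 0.201 and 0.360 in A1G and 0.289, 0.245 and 0.806 in MG mice. All 6 flown mice lay below all GC mice, and the flown groups overlapped. The log2 fold change was -1.91 ± 0.54 (adjusted p = 0.0814) in MG vs. GC, -2.24 ± 0.53 (0.0974) for A1G over GC and 0.33 ± 0.60 (0.934) for MG over A1G. It passed in A1G vs. GC when genes of low counts were kept (0.0335) and with DESeq2 (0.0144), and in MG vs. GC without MG replicate 3 (0.0474). Without MG replicate 3 its estimate in MG vs. A1G was -0.36.

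*Top2a* (chr11:98992943-99024189, minus strand), the topoisomerase that untangles chromosomes, stood at 1.22, 1.47 and 1.29 CPM in GC, 0.493, 0.854 and 1.24 in A1G and 0.0578, 0.392 and 0.806 in MG mice. MG mice lay below GC mice, and A1G mice overlapped with both (-1.72 ± 0.64, adjusted p = 0.175 in MG vs. GC). *Aurka* (chr2:172356190-172370535, minus strand), a kinase of the spindle poles, had the highest level of the mitotic members at a mean of 2.00 TPM. It stood at 2.59, 2.39 and 2.58 CPM in GC, 1.97, 2.61 and 3.04 in A1G and 2.08, 2.74 and 4.54 in MG mice. The groups overlapped, with 0.30 ± 0.31 in MG vs. GC. *Birc5*, survivin, a part of the chromosomal passenger complex, had -0.45 ± 0.39.

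The 12 members too low to test were *Cdc6*, *Gins2*, *Ccnb1*, *Ccnb2*, *Foxm1*, *Aurkb*, *Bub1*, *Bub1b*, *Plk1*, *Cenpe*, *Cenpf* and *Cdc20*. Most of them act in mitosis, such as the mitotic cyclins, PLK1, the checkpoint kinase BUB1 and CDC20, which starts anaphase. Their summed counts were 72, 76 and 68 in GC, 35, 52 and 39 in A1G and 28, 14 and 17 in MG mice. In CPM the sums were 3.52, 3.49 and 3.99 in GC, 1.57, 2.61 and 1.56 in A1G and 1.62, 0.686 and 1.25 in MG mice. The sums of GC mice did not overlap with those of flown mice, and A1G replicates 1 and 3 were below MG replicate 1. *Ccnb2*, cyclin B2, held 22 of the GC counts and 15 of the MG counts, while *Aurkb*, a kinase of the passenger complex, had 20 and 1.

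Markers of other cells also differed between these mice. The 6 erythroid markers used here, which include the globins and *Alas2*, the first enzyme of haem synthesis in red cell precursors, summed to 316 to 358 CPM in GC, 113 to 417 in A1G and 142 to 251 in MG mice. In CPM all 5 tested were below GC in every MG mouse, as were 12.0% of all genes, and none passed. In TPM the MG and GC mice overlapped for *Hba-a1*, *Hba-a2* and *Hbb-bs*. The erythroid marker not tested, *Slc4a1*, had at most 4 counts in a library. Of the cholangiocyte markers *Krt19* and *Epcam* had -1.17 ± 0.40 and -1.36 ± 0.45 in MG vs. GC (adjusted p = 0.145 and 0.129). *Krt7* and *Spp1* had -1.29 ± 0.79 and -0.76 ± 0.30 (0.424 and 0.200). *Sox9*, the 1 estimate above 0, had 0.15 ± 0.19, and none of the 5 passed. Sums of all 5 markers were 29.7 to 55.8 CPM in GC, 33.1 to 50.4 in A1G and 28.1 to 32.4 in MG mice. *Spp1* alone had means of 33.3, 26.1 and 19.8 CPM in GC, A1G and MG mice. Of the stellate cell markers *Col1a1* fell in MG vs. GC (-1.79 ± 0.38, adjusted p = 0.0258). *Col3a1* had -1.16 ± 0.37 (adjusted p = 0.115), with every MG mouse below every GC mouse in CPM and an overlap in TPM. *Dcn* had -0.05 ± 0.12, and *Lrat* had 0.44 ± 0.23 (adjusted p = 0.349) with every MG mouse above every GC mouse. Estimates were below 0 for 5 stellate cell markers and above 0 for 1. The sums of all 6 ran from 174 to 223 CPM in GC, 175 to 238 in A1G and 173 to 205 in MG mice. Of the hepatocyte markers *Tat*, an enzyme of tyrosine breakdown, fell (-0.71 ± 0.14, adjusted p = 0.0208), while *Cyp2e1*, a drug-metabolizing cytochrome, had 0.55 ± 0.15 (adjusted p = 0.0724) with every MG mouse above every GC mouse, and the other 5 ran from -0.51 to 0.21. In CPM every MG mouse lay below every GC mouse for *Tat*, *Apoa1* (-0.51 ± 0.23, adjusted p = 0.256) and *Serpina1a* (-0.43 ± 0.13, 0.0909). In TPM *Serpina1a* overlapped. The sums of all 7 were 74910 to 80684 CPM in GC, 72002 to 77785 in A1G and 70110 to 81873 in MG mice. None of 7 Kupffer cell and 6 endothelial markers passed in MG vs. GC. Estimates were below 0 for 5 Kupffer cell markers and above 0 for 2. In CPM *Clec4f* (-0.38 ± 0.18) and *Cd68* (-0.65 ± 0.26) lay below GC in every MG mouse, while in TPM both overlapped with GC mice. *Marco* had 0.91 ± 0.53. Among endothelial markers 5 estimates were above 0 and 1 below, with *Pecam1* (0.41 ± 0.15) above GC in every MG mouse. Kupffer cell sums were 144 to 215 CPM in GC, 139 to 234 in A1G and 145 to 162 in MG mice. Endothelial sums were 107 to 155, 155 to 174 and 129 to 171. Sums were 6.99 to 8.40, 6.18 to 10.2 and 7.59 to 9.23 CPM for 8 lymphocyte markers, of which 3 were tested, and no neutrophil marker was tested, with 4 to 22 counts over 7 of them in a library. The part of these cells in the results was not tested.

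Other genes of replication and division outside the list were counted in the same way. Of 157 such genes in 4 lists, 156 were found and 123 tested. In MG vs. GC 2 fell and 0 rose, near the 2.15% and 1.17% of all genes, and the median was -0.15. At an unadjusted p under 0.05, 14 of them were lower and 3 higher in that comparison, against 10.2% and 8.23% of all genes. For A1G over GC edgeR called 0. By unadjusted p at the same 0.05, 3 were higher and 3 lower, against 6.61% and 7.61% of all genes. For MG over A1G it called 0, with 3 higher and 10 lower by unadjusted p, against 4.37% and 4.61% of all genes. *Rpa1* (chr11:75298166-75348324, minus strand), a subunit of the protein that coats single-stranded DNA, stood at 30.8, 32.8 and 33.9 CPM in GC, 24.8, 28.4 and 29.1 in A1G and 19.3, 22.0 and 25.4 in MG mice. MG mice lay below GC and overlapped with A1G (-0.55 ± 0.13, adjusted p = 0.0353). Its call was lost in 7 of the 9 fits that left out a library (adjusted p up to 0.153), with library size (0.107) and in log2(TPM + 1) (0.325).

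*Ncapd2* (chr6:125168007-125191701, minus strand), a subunit of condensin, which packs chromosomes for mitosis, stood at 3.81, 4.13 and 5.58 CPM in GC, 3.14, 3.57 and 3.76 in A1G and 1.91, 1.52 and 2.27 in MG mice. MG mice lay below all others. It fell in MG vs. GC (-1.26 ± 0.25, adjusted p = 0.0206), and the call was lost without GC replicate 2 (0.0606), MG replicate 1 (0.0825) or MG replicate 2 (0.0951). By list, 1 of 47 other replication genes fell in MG vs. GC (median -0.19), 1 of 38 other mitotic genes (median -0.19), 0 of 14 inhibitors and pocket proteins (median -0.17) and 0 of 24 other cyclins, kinases and E2F or MYB factors (median -0.02). None of these lists had a gene that rose.

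None of the 14 inhibitors and pocket proteins tested, the brakes of the cycle, passed in any comparison with edgeR's filtered counts. *Cdkn1a*, the inhibitor p21, varied widely, at 35.2, 59.3 and 17.0 CPM in GC, 17.2, 18.6 and 16.9 in A1G and 28.4, 18.5 and 45.8 in MG mice. Its estimate was -1.08 ± 0.39 (adjusted p = 0.234) in A1G vs. GC, where it passed when genes of low counts were kept (0.0219). *Fbxw7*, which marks cyclin E for destruction, stood at 7.52, 7.71 and 7.57 CPM in GC and 9.59, 11.0 and 10.2 in MG mice, without overlap (0.43 ± 0.16, adjusted p = 0.165). *E2f2*, an activating E2F, was higher in A1G mice (2.91, 3.27 and 2.44 CPM) than in MG mice (0.173, 0.784 and 1.25 CPM), with -2.00 ± 0.49 (adjusted p = 0.184), and passed when genes of low counts were kept (0.0176) and with DESeq2 (0.0186). *E2f6*, a repressing E2F, stood at 14.7, 17.0 and 15.1 CPM in GC and 26.0, 18.9 and 24.5 in A1G mice (0.57 ± 0.14, adjusted p = 0.107). It passed when genes of low counts were kept (0.0453), in log2(TPM + 1) (0.90, 0.0453), in log2(TPM + 0.1) (0.98, 0.0498) and without A1G replicate 2 (0.70, 0.0454).

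**Figure D4:**
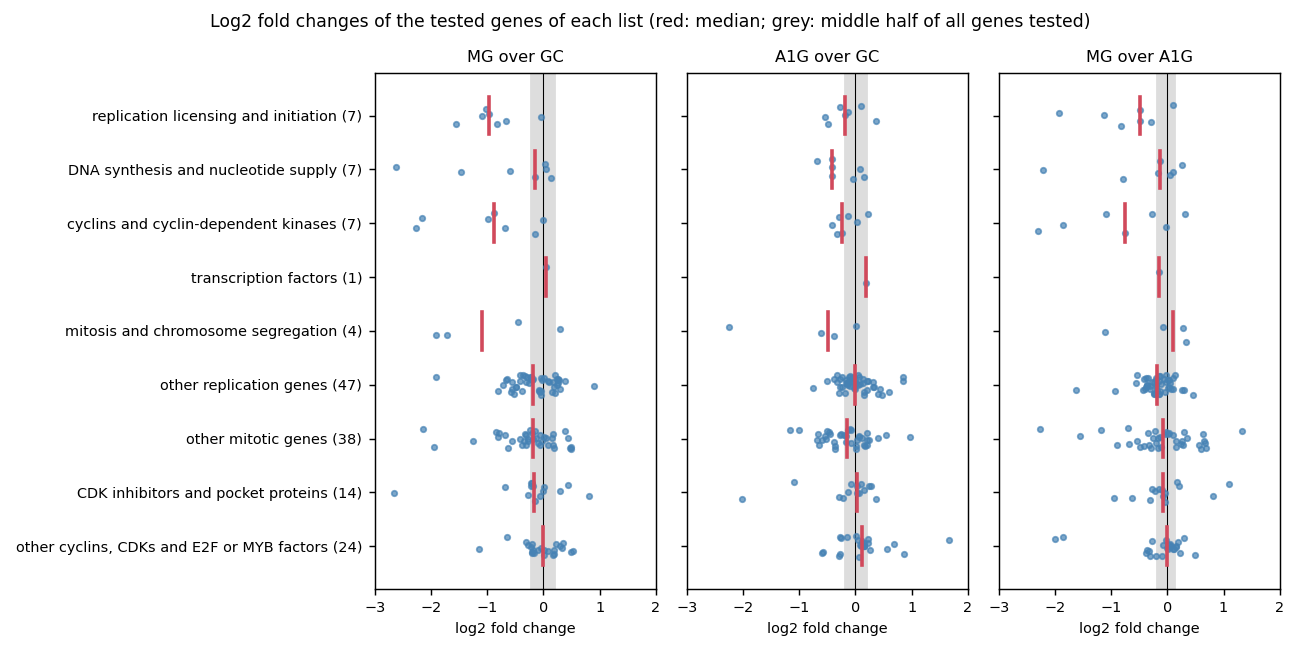
Log2 fold changes of the tested genes of 5 groups of members and 4 lists of other cell cycle genes (points; number tested in brackets) with each median as a red bar, in 3 comparisons. Grey marks the range between the quartiles of all genes tested; in MG over GC the median was -0.97 for licensing genes and -0.19 for other replication genes.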

How the data were processed

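Poly(A) RNA of 9 livers was sequenced from stranded libraries, 1 per mouse. Per the submitters' processing notes, the authors used fastp 0.19.4 on the reads, then Salmon 0.9.1 for quantification (GRCm38), and deposited estimated counts per gene and TPM. The annotation release is not given in the sources used here. Of the deposited estimated counts 17.1% were not whole (tolerance 1e-06), and they were rounded. The authors' tables of their own DESeq2 comparisons gave gene symbols only (20524 IDs; 14180 more came from GENCODE M21, and 162 had none), and their fold changes, scores and p-values were not used. All 38 genes had the same versioned ID in GENCODE M21, whose coordinates are printed.

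Counts were analysed in R 4.3.3 with edgeR 4.0.16 (filterByExpr, minimum count 10, TMM, quasi-likelihood F test on all 9 libraries with group as the term). The SE is the absolute log2 fold change divided by the square root of F. The procedure was tested on counts simulated from the means, spread and scaled library sizes of these data, which cannot decide between scalings. Replicate numbers mark separate mice, and between mice of a group the chi-square per gene ran from 17.4 to 83.8, so no library was a repeat of another. With 3 mice a group the smallest exact two-sided p is 0.1, so genes were tested only in the model. Alternatives were DESeq2 1.42.0, limma 3.58.1 on log2(TPM + 1) and log2(TPM + 0.1), other scalings, filters and fits, a replicate block and each library left out. The counts without overlap under other scalings were added after seeing the data. Genes given in every mouse are those called and, per role, the highest in mean TPM and the 2 of smallest p; *Rrm1*, *Rrm2b*, *Cdt1*, *Uhrf1*, *Ccnd1* and *Ccne2* were added after their values were seen. A marker of the erythroid list is not reported here and was left out of its sums. The members and lists were chosen with earlier results of these data known.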

Additional observations from a re-analysis of the deposited data

How the results depend on the processing

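The number of mice (3 a group) and the few counts of most members limit precision. Alternatives other than leaving out a library moved counts as follows, in the order MG over GC, A1G over GC and MG over A1G. Of all genes, edgeR called 439, 85 and 10, against 803, 384 and 188 without a filter on low counts and 805, 329 and 173 with DESeq2. Library size alone gave 1 in MG vs. A1G, robust empirical Bayes 34, limma on log2(TPM + 1) 2 and on log2(TPM + 0.1) 0. Using only the 6 libraries compared gave 51 in A1G vs. GC and 0 for MG over A1G, and limma on log2(TPM + 1) without a filter 261, 1 and 0. Higher calls were 35.3%, 27.1% and 70% with TMM, 64.6%, 65.8% and 100% with library size, and 81.2%, 67.5% and 50% in log2(TPM + 1). Members called lower were 1, 0 and 0, against 4 (*Mcm2*, *Mcm4*, *Rrm2*, *Tk1*), 1 (*Mki67*) and 2 (*Mcm2*, *Mcm4*) without a filter and 3, 1 and 1 with DESeq2. In MG vs. GC they were 2 with at least 10 counts in every library (*Mcm2*, *Rrm2*), 2 with robust empirical Bayes (*Mcm2*, *Rrm2*), 2 with the 6 libraries (*Rrm2*, *Tk1*), and 1 (*Cdc6* in place of *Rrm2*) in log2(TPM + 1) without a filter. Members lower without overlap in A1G vs. GC were 5, against 2 with library size (3.82% of all genes) and 3 in TPM (2.30%), and for MG over A1G 5, against 7 with library size (10.2%) and 3 in TPM (7.95%). The replicate numbers share no stated batch. Deviations of same-numbered mice correlated at -0.0082 to 0.11, and those of other-numbered mice of different groups at -0.088 to 0.041. The same-numbered A1G and MG mice had 0.114, 0.0586 and 0.0973, above that range. Whether these mice shared a batch was not tested. With the replicate block, calls were 509, 145 and 44 of all genes, and 3 (*Ccnd1*, *Mcm2*, *Rrm2*), 0 and 1 (*Ccnd1*) members lower, and *Aurka* in A1G vs. GC moved to -0.022. Leaving out a library gave 181 to 642, 4 to 204 and 0 to 48 calls, and 1 to 3, 0 to 0 and 0 to 1 members lower. The 3 were *Mcm2*, *Mki67* and *Rrm2* without MG replicate 3, and the 1 in MG vs. A1G was *Mcm2* without it. Estimates near 0 changed sign. With library size *Mcm7* was 0.11 in MG vs. GC and 0.053 for A1G over GC and *Cdk4* 0.062 in A1G vs. GC. In log2(TPM + 1), with or without a filter, and in log2(TPM + 0.1), *Mcm7* was 0.30 and 0.34 in MG vs. GC and 0.20 and 0.23 for A1G over GC, *Pcna* 0.13 and 0.14 and *Cdkn1a* 0.11 and 0.12 in MG vs. GC, *Rpa1* 0.16 and 0.17 in A1G vs. GC and *Cdk4* 0.026 and 0.026 for MG over A1G. With a library left out, estimates ran through 0 for *Mcm7* -0.17 to 0.10, *E2f1* -0.19 to 0.29, *Aurka* -0.054 to 0.53, *Cdkn1a* -0.66 to 0.24 in MG vs. GC, for *Mcm4* -0.019 to 0.27, *Mcm7* -0.26 to 0.0036, *Ccne1* -0.23 to 0.56, *E2f1* -0.00088 to 0.33, *Aurka* -0.13 to 0.18 in A1G vs. GC and for *Mcm7* -0.0098 to 0.16, *Tk1* -0.36 to 0.0011, *Cdk4* -0.10 to 0.048, *E2f1* -0.38 to 0.098, *Mki67* -0.36 to 0.65, *Aurka* -0.078 to 0.50 in MG vs. A1G. Apart from the settings whose construction leaves fewer genes or samples, the cause was not tested.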
